A study of Mus musculus with 12 samples.

Results

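The genes described here are the 3 fibrinogen chains (Fga, Fgb and Fgg) and 5 genes that start, brake or accompany clotting at the vessel wall (F3, Thbd, Thbs1, Procr and Tfpi). They were taken by symbol from a table of raw counts per gene, and they are 8 of its 23420 genes. The table holds polyA RNA-seq of kidneys of C57BL/6J male mice, given as 8 to 15 weeks old in the study's methods, with 1 column for each of 12 kidneys. The study compared ischemic kidneys of conscious and of anesthetized mice with normal kidneys. The 4 control kidneys came from nephrectomy by the study's methods, although their labels carry the same ischemia protocol as the rest, and the other 8 were kidneys 24 h after 20 min of ischemia, in 2 sets of 4. The labels contradict each other on the sets. The set whose titles name anesthesia (ischemia A here) carries a group field naming conscious animals, and the set whose titles name conscious animals (ischemia B) carries a group field naming anesthesia, so no value below is credited to anesthesia or to wakefulness. Ischemia was made by closing a clamp on the renal pedicle, and it cannot be told apart here from the clamp surgery and the recovery that came with it.

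Fibrinogen is a soluble plasma protein built from paired alpha, beta and gamma chains. Thrombin trims it to fibrin, the mesh of a clot. The liver makes nearly all of it in health, and its 3 genes lie side by side and are switched on together in the acute-phase response, largely through interleukin-6 and STAT3. Chain transcripts have also been described in the tubule epithelium of the injured kidney. Tissue factor, the product of F3, starts clotting when blood meets cells outside the vessel. Tissue factor pathway inhibitor (Tfpi), thrombomodulin (Thbd) and the endothelial protein C receptor (Procr) restrain it at the endothelial surface, and thrombospondin 1 (Thbs1) is an adhesive glycoprotein of platelets and stressed tissue that binds fibrinogen and CD36.

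Counted reads per kidney ranged from 15367342 to 44793350, and values below are in CPM, the counts of a gene scaled to a total of 1000000 per kidney, unless stated otherwise. Tubule markers were present in every kidney, with a summed level between 7579 and 8473 in controls, 1514 and 1868 in ischemia A, and 1612 and 2091 in ischemia B. Of the 6 genes in this sum, Lrp2, Slc34a1 and Slc12a1 were called lower in both sets, and Umod, Slc12a3 and Aqp2 were not called in either. Ischemia B replicate 4 stood apart from the other 11 kidneys on the second principal component. Counts of 0 are not read as absence of a transcript, because B2m, a gene used by nearly every nucleated cell, lay between 0 and 1.16 CPM in the 12 kidneys. Fewer cells of a type and less RNA per cell cannot be told apart in whole kidney.

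The 3 chain genes occupy 42140 bases of mouse chromosome 3 (mm10, GENCODE M21 annotation). Fgg (83007724 to 83015049) and Fga (83026076 to 83033627) are on the plus strand and are separated by 11026 bases, and Fgb (83040141 to 83049863) follows Fga after 6513 bases on the minus strand. Their start regions, from 250 bases before to 50 bases after the RefSeq start site, are printed from the strand of each gene because the 3 genes rose together and the factors that drive them in liver are known. The windows are chr3:83025903-83026202 on the plus strand for Fga, chr3:83049814-83050113 on the minus strand for Fgb and chr3:83007474-83007773 on the plus strand for Fgg (RefSeq, GRCm38.p6). Capitals mark every match to the 6 short motifs named after the sequences.
Fga: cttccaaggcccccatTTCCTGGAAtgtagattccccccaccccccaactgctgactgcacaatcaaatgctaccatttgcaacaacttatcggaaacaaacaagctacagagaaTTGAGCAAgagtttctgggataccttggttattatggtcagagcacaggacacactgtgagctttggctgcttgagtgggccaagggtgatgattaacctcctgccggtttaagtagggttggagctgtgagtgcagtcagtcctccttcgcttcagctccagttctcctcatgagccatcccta
Fgb: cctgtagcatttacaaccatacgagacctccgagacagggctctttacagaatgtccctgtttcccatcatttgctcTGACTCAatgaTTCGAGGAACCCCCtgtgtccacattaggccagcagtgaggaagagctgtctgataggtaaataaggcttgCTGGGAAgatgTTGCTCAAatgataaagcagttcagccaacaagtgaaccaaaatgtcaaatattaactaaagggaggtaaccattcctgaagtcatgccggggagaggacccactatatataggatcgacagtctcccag
Fgg: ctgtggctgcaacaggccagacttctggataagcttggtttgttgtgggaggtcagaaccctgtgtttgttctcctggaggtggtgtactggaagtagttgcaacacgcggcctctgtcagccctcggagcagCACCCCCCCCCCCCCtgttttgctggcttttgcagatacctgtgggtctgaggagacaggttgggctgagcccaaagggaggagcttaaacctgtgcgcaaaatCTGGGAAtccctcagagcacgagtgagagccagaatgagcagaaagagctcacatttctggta

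The motifs were searched on both strands, and overlapping matches are printed as 1 run of capitals. The STAT motif TTCNNNGAA lay in the Fga window from 234 to 226 bases before the start site and in the Fgb window from 162 to 154 bases before it. It was present in 8.3% of the 32851 windows of this length in the reference. The core of the interleukin-6 response element, CTGGGAA, was found in the Fgb window at 91 to 85 bases and in the Fgg window at 13 to 7 bases before the start, against 11.1% of all windows. A C/EBP motif, TTGCNNAA, was found in the Fgb window at 80 to 73 bases and on the opposite strand of the Fga window at 135 to 128 bases before the start, against 10.8% of windows. The AP-1 motif TGANTCA (7.81% of windows) and the NF-kB motif GGGNNTTCC (5.82%), which overlapped the STAT match, were found in the Fgb window. The EGR1 motif GNGGGGGNG (18.8%) matched the run of C bases in the Fgg window 6 times in overlapping positions. These matches describe letters only, and no binding was measured. Of the 8 genes, 6 had a window in the reference.

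All 3 fibrinogen chains were higher in ischemic kidneys than in controls, in ischemia A by 3.51-fold for Fga, 7.97-fold for Fgb and 8.91-fold for Fgg, and in ischemia B by 5.01-fold, 16.3-fold and 20.9-fold. Thbs1 was also higher in both sets, whereas Thbd was not called in either. Genes were called at an adjusted p below 0.05 in the quasi-likelihood test of edgeR, adjusted by Benjamini and Hochberg's method over the 11664 genes that passed its count filter, and 5 of the 8 genes passed that filter. Of the 8, 4 were called higher in ischemia A against control and 4 in ischemia B against control. Over all genes tested, 10.5% were called higher in ischemia A and 10.9% in ischemia B. Values without any overlap with control were also common. In ischemia A 13.2% of tested genes lay above and 15.2% below all controls, and in ischemia B 12.1% and 14.7%. Ischemia B replicate 4, the kidney that stood apart, was not needed for these calls: without it the log2 fold changes in ischemia B were 2.58 for Fga, 4.34 for Fgb, 4.38 for Fgg, 1.29 for Thbs1 and 1.4 for Thbd, with the same 4 genes called. The comparisons of the sets with control use the same 4 control kidneys, so their results are not separate evidence.

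Fga, which encodes the alpha chain, was the only chain with more than 100 counts in every kidney. Its level was 8.64, 8.38, 9.56 and 3.21 CPM in control replicates 1 to 4, 15.44, 34.99, 18.40 and 37.23 CPM in ischemia A, and 31.77, 25.58, 78.29 and 16.33 CPM in ischemia B. Every ischemic kidney lay above every control, and ischemia B replicate 3 was the highest of all. The mean was 7.45 ± 2.87 CPM in controls, 26.5 ± 11.2 CPM in ischemia A and 38.0 ± 27.6 CPM in ischemia B (SD, n = 4 each). The log2 fold change against control was 1.81 in ischemia A (SE 0.44, 95% interval 0.89 to 2.73, edgeR adjusted p = 0.00562) and 2.33 in ischemia B (SE 0.44, interval 1.41 to 3.24, adjusted p = 0.000768). Without ischemia B replicate 3 the value in ischemia B was 1.70 (adjusted p = 0.00609).

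Fgb encodes the beta chain, whose assembly is held to limit fibrinogen secretion by hepatocytes. Control replicates 1 to 4 had 2.31, 1.61, 0 and 0 CPM, ischemia A had 2.27, 9.85, 7.05 and 11.78 CPM, and ischemia B had 15.45, 21.79, 21.18 and 4.42 CPM. All 4 ischemia B kidneys lay above the controls, while ischemia A replicate 1 fell just under control replicate 1. The mean was 0.979 ± 1.17 CPM in controls, 7.74 ± 4.13 CPM in ischemia A and 15.7 ± 8.05 CPM in ischemia B (SD, n = 4 each). The log2 fold change was 2.99 in ischemia A (SE 0.97, interval 0.96 to 5.03, edgeR adjusted p = 0.0439) and 4.02 in ischemia B (SE 0.97, interval 1.99 to 6.05, adjusted p = 0.00965). The ischemia A call sat close to the threshold and was lost in 10 of 20 alternative analyses, with adjusted p between 0.00415 and 0.105, whereas the ischemia B call was kept in all 20. The kidneys whose omission ended the ischemia A call were control replicates 2, 3 and 4, ischemia A replicates 2, 3 and 4, and ischemia B replicates 1, 2 and 3, with log2 fold changes between 2.56 and 3.79 over all 12 omissions. Without control replicate 1, the highest control, the values were 3.79 (adjusted p = 0.0276) in ischemia A and 4.81 (adjusted p = 0.00806) in ischemia B.

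Fgg, the gene of the gamma chain, which carries the sites for platelets and for fibrin cross-linking, had 4.86, 0.0766, 0.0373 and 0.18 CPM in control replicates 1 to 4. Ischemia A had 9.08, 15.45, 3.66 and 15.34 CPM, and ischemia B had 31.27, 19.43, 24.98 and 26.35 CPM. In controls only replicate 1 exceeded 10 counts, with 99 reads against 3, 1 and 7 in the others. Ischemia B was above every ischemia A kidney as well as every control, and only ischemia A replicate 3 was below the highest control. The mean was 1.29 ± 2.38 CPM in controls, 10.9 ± 5.66 CPM in ischemia A and 25.5 ± 4.87 CPM in ischemia B (SD, n = 4 each). The log2 fold change was 3.16 in ischemia A (SE 0.88, interval 1.32 to 5.0, edgeR adjusted p = 0.02) and 4.39 in ischemia B (SE 0.88, interval 2.55 to 6.22, adjusted p = 0.00267). Control replicate 1 sets the size of both values, which became 6.64 (adjusted p = 1.02e-06) and 7.86 (adjusted p = 2.3e-07) without it. The ischemia A call was lost without control replicate 4 (adjusted p = 0.0572) and when ischemia B was left out of the fit (0.0567).

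**Figure D1:**
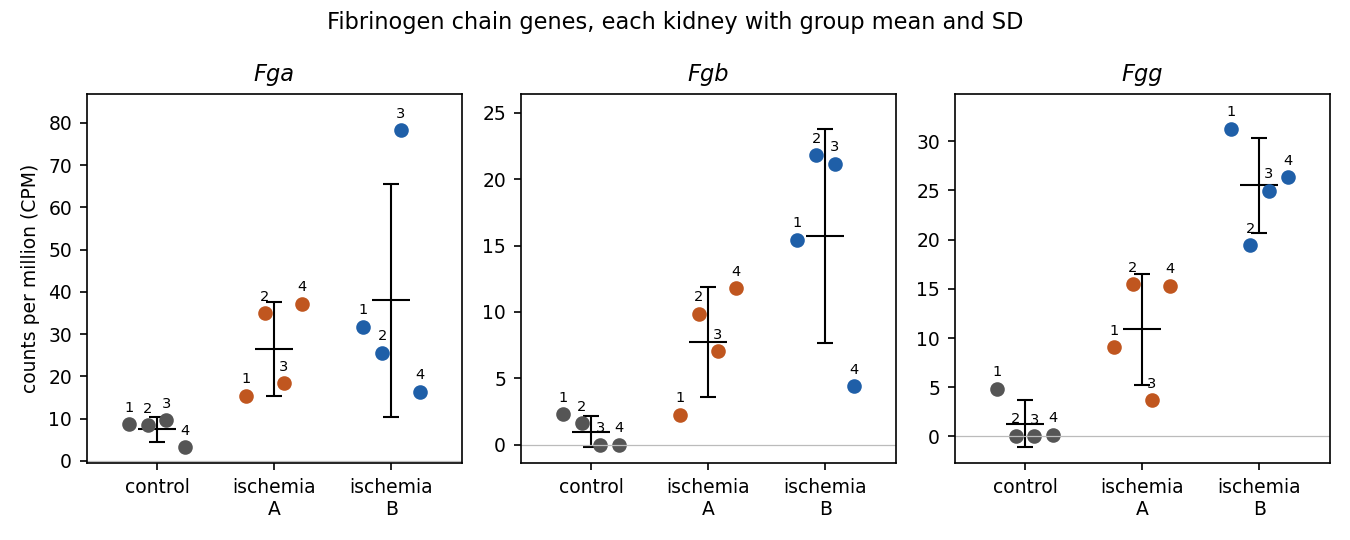
CPM (vertical axes, 1 scale per gene) of Fga, Fgb and Fgg in each kidney, numbered by replicate, with the group mean and SD (n = 4). All ischemia B kidneys lay above all controls for the 3 genes, as they did for 12.1% of all tested genes. Control replicate 1 was the highest control for Fgg at 4.86 CPM.

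Levels of the 3 chains can be compared with each other only per length, so CPM was divided by the kilobases of annotated exon (3010 bases for Fga, 3810 for Fgb and 2093 for Fgg). On this scale the level of Fga was 2.47 ± 0.954 CPM per kb in controls, 8.81 ± 3.72 in ischemia A and 12.6 ± 9.17 in ischemia B (SD, n = 4 each). For Fgg it was 0.616 ± 1.14, 5.20 ± 2.71 and 12.2 ± 2.32 CPM per kb. Fgb was the lowest on average, at 0.257 ± 0.306, 2.03 ± 1.08 and 4.12 ± 2.11 CPM per kb. The sum of the 3 chains ranged from 1.15 to 5.8 CPM per kb in controls, from 9.71 to 22.8 in ischemia A and from 19.2 to 43.5 in ischemia B. Fga made up 49.5 to 99.4% of the sum in controls, 51.0 to 62.9% in ischemia A and 28.3 to 59.8% in ischemia B. The Fgg share was 18 to 43.1% in ischemia A and 27.4 to 65.7% in ischemia B, and the Fgb share was 5.92 to 19.1% and 6.06 to 24.3%. Fga led in all 4 controls and all 4 ischemia A kidneys, and Fgg led in 3 of 4 ischemia B kidneys. With coding length in place of exon length the order of the chains changed in some kidneys, and Fga then led in 3 controls, 3 ischemia A kidneys and 1 ischemia B kidney.

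**Figure D2:**
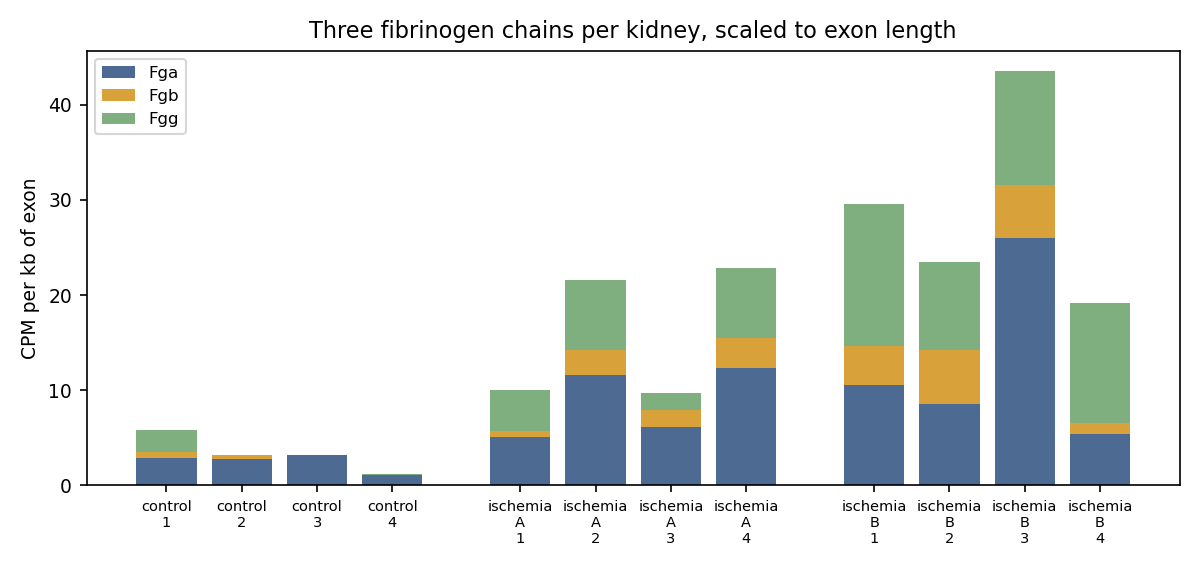
Stacked bars of CPM per kb of annotated exon (vertical axis) for Fga, Fgb and Fgg in each of the 12 kidneys (horizontal axis). The summed level was 1.15 to 5.8 in controls and 9.71 to 43.5 in ischemic kidneys, and Fga was the largest part of every control and ischemia A bar.

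The ratio of 1 chain to another within a kidney does not depend on its total count. On the log2 scale of counts, Fga exceeded Fgb by 1.91 ± 0.60 in ischemia A and 1.26 ± 0.79 in ischemia B (SD, n = 4 each), and the difference of -0.65 had an exact two-sided permutation p of 0.286. Fga exceeded Fgg by 1.39 ± 0.67 in ischemia A and 0.34 ± 0.98 in ischemia B, a difference of -1.04 (exact permutation p = 0.143). The ratio of Fgb to Fgg was -0.52 ± 1.21 in ischemia A and -0.92 ± 1.21 in ischemia B, a difference of -0.39 (exact permutation p = 0.657). The 3 p-values adjusted together were 0.429, 0.429 and 0.657, and the smallest p that 4 kidneys against 4 can give is 0.0286.

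Across the 8 ischemic kidneys, log2 CPM of Fga and Fgb had Pearson's r = 0.77 (exact permutation p = 0.0244) and Spearman's rho = 0.69 (exact permutation p = 0.0694). For Fga and Fgg r was 0.455 (exact permutation p = 0.262) and rho 0.262 (p = 0.536), and for Fgb and Fgg r was 0.45 (exact permutation p = 0.267) and rho 0.452 (p = 0.267). No pair passed after adjustment over the 3 pairs, where the lowest adjusted exact permutation p was 0.0732 for r and 0.208 for rho. Leaving out the 2 kidneys farthest from the median gave r = 0.668, 0.307 and 0.81 in that order of pairs. The kidney with the highest value differed between the chains. Ischemia B replicate 3 was highest in Fga and ischemia B replicate 1 in Fgg. For Fgb, ischemia B replicate 2 (21.79 CPM) was just above ischemia B replicate 3 (21.18 CPM).

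Of the 4 nearest coding genes beside the cluster, 1 was tested and it was not called. This was Plrg1, a splicing factor gene 5659 bases from the Fgb side, which had 20.5 to 24.0 CPM in controls, 19.3 to 29.4 CPM in ischemia A and 19.0 to 29.4 CPM in ischemia B. Its log2 fold change was 0.10 (SE 0.26, edgeR adjusted p = 0.875) in ischemia A and 0.14 (SE 0.26, adjusted p = 0.805) in ischemia B. On the Fgg side, Lrat, the enzyme that esterifies retinol, had 0 counts in all 12 kidneys, and Rbm46, an RNA-binding protein gene, had 0 CPM in all controls, up to 0.781 CPM in ischemia A and up to 1.0 CPM in ischemia B, and was not tested. Dchs2, the next gene beyond Plrg1, had no entry under that symbol in the counts.

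Thbs1 (chromosome 2, 118111876 to 118127133, plus strand) was the most abundant of the 8 genes, also per length, at 40.3 ± 6.89 CPM per kb of exon in controls, 124 ± 74.1 in ischemia A and 93.2 ± 21.5 in ischemia B (SD, n = 4 each). In CPM it was 279.8, 218.3, 255.2 and 188.4 in control replicates 1 to 4, 1155.9, 388.6, 1043.0 and 321.4 in ischemia A, and 443.4, 639.8, 666.7 and 429.4 in ischemia B. No ischemic kidney was as low as any control, and ischemia A split into a high pair (replicates 1 and 3) and a low pair (replicates 2 and 4). The log2 fold change was 1.60 in ischemia A (SE 0.30, interval 0.98 to 2.23, edgeR adjusted p = 0.000569) and 1.19 in ischemia B (SE 0.30, interval 0.56 to 1.82, adjusted p = 0.00662), or 3.04-fold and 2.28-fold. Both calls were kept in all 20 alternative analyses. Some markers of stromal and smooth muscle cells moved with it. Of 5 in the list 4 were tested, and Acta2, Tagln and Col1a1 were called higher in both sets, while Pdgfrb, the pericyte receptor, was not (adjusted p = 0.452 and 0.775). The sum of the list was 488 to 696 CPM in controls, 1261 to 3534 in ischemia A and 1581 to 2958 in ischemia B, and Acta2, the smooth muscle actin, was at 1187.9 and 1056.2 CPM in the high pair against 413.3 and 467.8 CPM in the low pair. The part of these cells in the Thbs1 result was not tested.

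Thbd (chromosome 2, 148404466 to 148408188, minus strand) encodes thrombomodulin, the endothelial receptor that turns thrombin towards activating protein C. Its level was 0, 4.27, 0.86 and 0 CPM in control replicates 1 to 4, 10.77, 3.39, 7.41 and 0 CPM in ischemia A, and 1.67, 3.04, 5.78 and 5.66 CPM in ischemia B. Values overlapped between all groups, with 0 counts in 2 controls and in ischemia A replicate 4. The mean was 1.28 ± 2.03, 5.39 ± 4.7 and 4.04 ± 2.02 CPM (SD, n = 4 each). The log2 fold change was 2.02 in ischemia A (SE 1.42, interval -0.95 to 5.0, edgeR adjusted p = 0.408) and 1.60 in ischemia B (SE 1.42, interval -1.38 to 4.58, adjusted p = 0.528). The intervals allow a fall as well as a rise, and without control replicate 2, which held 167 reads, the values were 4.18 and 3.73. The summed level of the endothelial marker list was 175 to 239 CPM in controls, 105 to 183 in ischemia A and 103 to 188 in ischemia B. Of its 9 tested genes, none was called in ischemia A, and only Tek was called in ischemia B, where it was lower.

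F3 (chromosome 3, 121723537 to 121735048, plus strand), the tissue factor gene, had 0 counts in all 4 controls, in ischemia A replicates 1, 3 and 4 and in ischemia B replicates 1 and 3. It was counted in ischemia A replicate 2 (25 reads, 1.09 CPM), ischemia B replicate 2 (52 reads, 3.23 CPM) and ischemia B replicate 4 (16 reads, 1.04 CPM). The 5 of 8 ischemic kidneys at 0 overlap the controls. Set against a floor of 3 counts per control library (0.103 CPM on average), the mean was at least 10.3-fold higher in ischemia B and at least 2.63-fold higher in ischemia A, but the ischemia A bound rests on replicate 2 alone and the ischemia B ratio falls to 3.36-fold without its replicate 2 (an omission tried after seeing the data). F3 did not pass the count filter. In a fit without the filter its adjusted p was 0.2 in ischemia A and 0.118 in ischemia B.

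Procr (chromosome 2, 155751117 to 155755471, plus strand), the receptor that presents protein C to thrombomodulin, was also at 0 in all controls. Ischemia A replicates 1 to 4 had 0.45, 0.09, 2.59 and 0 CPM, from 14, 2, 116 and 0 reads, and ischemia B had 6 reads in replicate 2 (0.37 CPM) and none elsewhere. The ischemia A mean was at least 7.57-fold above the same floor and rests mostly on replicate 3, since it falls to 1.73-fold without that kidney. Without the filter the adjusted p was 0.158 in ischemia A and 0.276 in ischemia B. Tfpi (chromosome 2, 84432855 to 84476775, minus strand), the inhibitor of tissue factor with factor VIIa, had 0 counts in all 12 kidneys, so no difference was detectable.

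**Figure D3:**
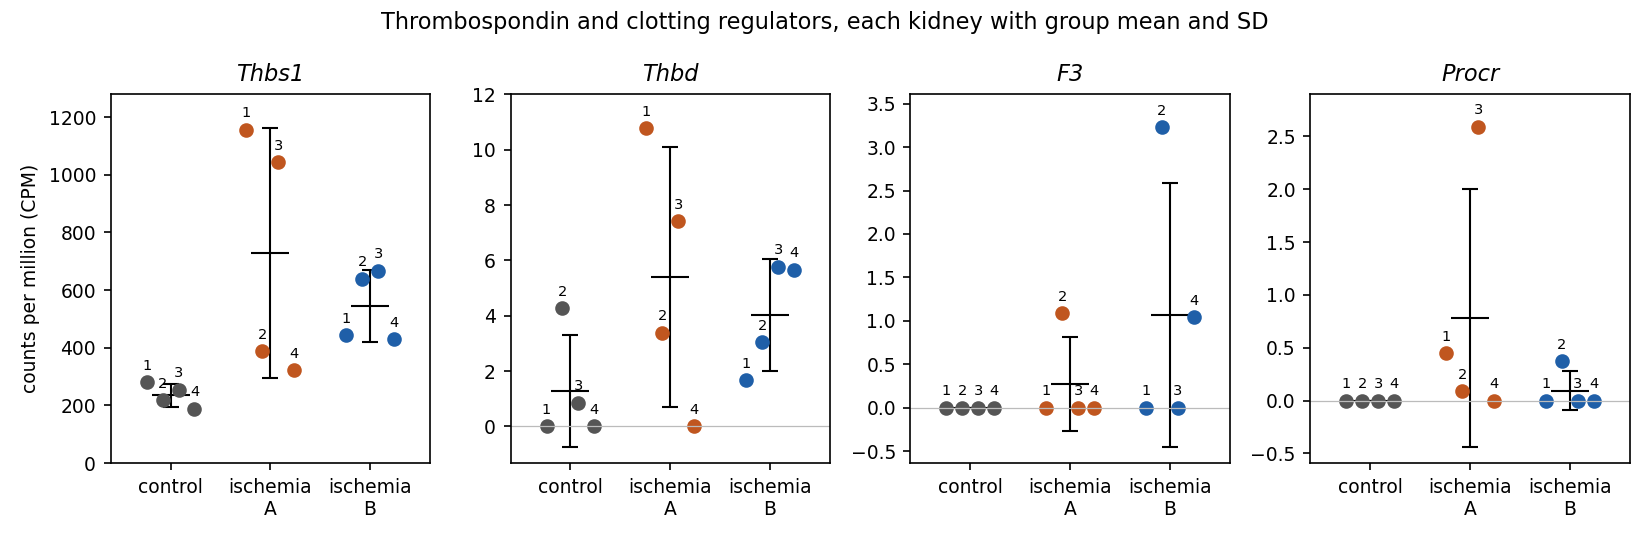
CPM (vertical axes, 1 scale per gene) of Thbs1, Thbd, F3 and Procr in each kidney, numbered by replicate, with the group mean and SD (n = 4). All ischemic kidneys exceeded all controls for Thbs1, whereas the other genes had kidneys at 0 in ischemic groups. Of all tested genes, 13.2% lay above all controls in ischemia A and 12.1% in ischemia B.

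Between the ischemia sets, none of the 8 genes was called, and edgeR gave none an unadjusted p below 0.05 in the fit of all 12 kidneys. At an unadjusted p below 0.05 there was 1 gene when only the 2 sets were fitted, 2 with the newer dispersion method of edgeR, and 1 each without control replicate 1, ischemia A replicate 2 and ischemia A replicate 4, none of them called after adjustment. DESeq2 and limma-trend called none either. The mean of each chain was higher in ischemia B: the log2 difference of ischemia B over ischemia A was 0.52 for Fga (95% interval -0.40 to 1.43), 1.03 for Fgb (-0.96 to 3.02) and 1.23 for Fgg (-0.56 to 3.01). Without ischemia B replicate 3 the Fga difference was -0.09, so its direction rests on that kidney. Thbs1 differed by -0.41 (-1.04 to 0.21) and Thbd by -0.42 (-3.39 to 2.54). Every edgeR adjusted p was 1.0, and over all genes 0.00857% were called between the sets. Fgg was the only 1 of the 5 tested genes whose values did not overlap, at 19.4 to 31.3 CPM in ischemia B against 3.66 to 15.5 CPM in ischemia A, while 1.4% of all tested genes had ischemia B above ischemia A and 1.25% had it below without overlap.

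**Figure D4:**
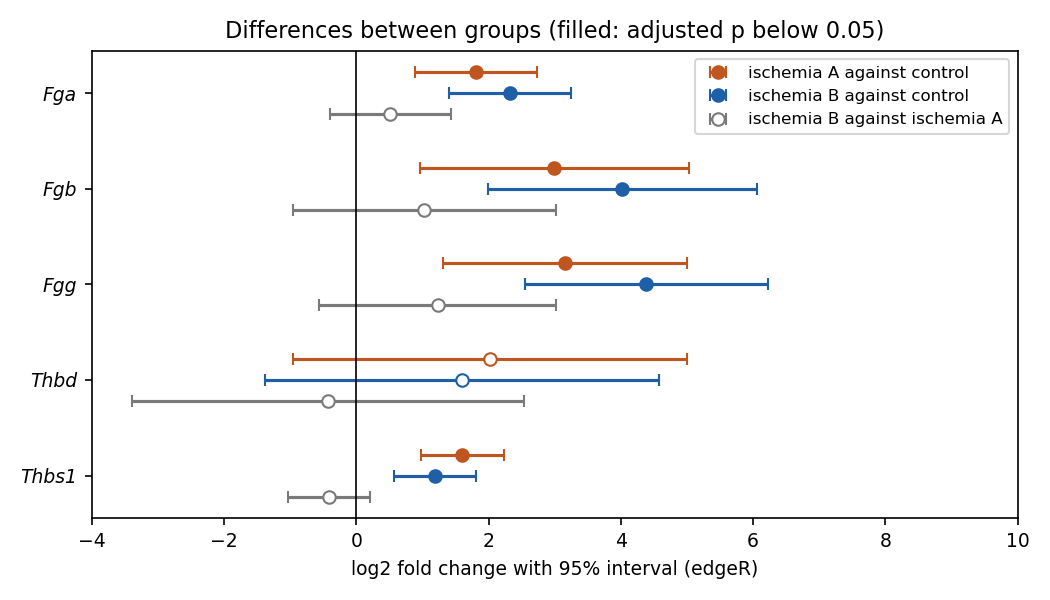
Log2 fold changes (horizontal axis) with 95% intervals from edgeR for the 5 tested genes, for both sets against control and for ischemia B over ischemia A, with filled points for an adjusted p below 0.05. The 3 chains and Thbs1 have filled points in both comparisons with control, and all intervals between the sets cross 0.

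The other genes of clotting and its control were read from lists of known members, 80 genes in all, of which 45 were tested. In ischemia A 9 were called higher and 8 lower, in ischemia B 8 higher and 8 lower, and none between the sets by edgeR, where 2 had an unadjusted p below 0.05. Over all tested genes, 22.3% were called in either direction in ischemia A and 22.8% in ischemia B. Beside the medians below, the median log2 fold change of all tested genes was -0.02 in both comparisons.

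Of 14 procoagulant factors, which are mostly liver proteins that circulate as zymogens, 6 were tested and none was called by edgeR in either set, with 1 at an unadjusted p below 0.05 in each. These were chosen for mention after their values were seen: in ischemia A it was F13a1, the fibrin cross-linking factor, with a log2 fold change of 3.58 (adjusted p = 0.154), every ischemic kidney being above every control in both sets, and in ischemia B it was F5, the cofactor of factor Xa, with -3.23 (adjusted p = 0.146). The others tested, F8, F13b, Kng2 and Vwf, had negative values in both sets. Their median log2 fold change was -1.87 in ischemia A and -2.60 in ischemia B. Vwf, the endothelial carrier of factor VIII, was 1.97 CPM on average in controls, 1.34 in ischemia A and 1.47 in ischemia B (adjusted p = 0.893 and 0.924). Of 8 anticoagulants 4 were tested and 1, Serpina10, was called higher in both sets. Serpina10 encodes the protein Z-dependent inhibitor of factor Xa. It had 0 counts in every control and 2.30 ± 1.07 CPM in ischemia A and 1.21 ± 1.39 CPM in ischemia B (SD, n = 4 each), at least 22.3-fold and 11.7-fold above the floor (adjusted p = 0.0197 and 0.0283). In ischemia B only replicates 1 and 2 had reads, and replicates 3 and 4 were at 0 like the controls, so that without replicate 2 the ratio to the floor was 7.56.

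Among 4 thrombin receptors and relatives, 2 were tested. F2rl1, the protease-activated receptor 2, was 0.0717 ± 0.127 CPM in controls, 2.99 ± 1.66 CPM in ischemia A and 6.76 ± 2.27 CPM in ischemia B (SD, n = 4 each). Its log2 fold change was 5.28 (SE 1.13, adjusted p = 0.00393) and 6.46 (SE 1.13, adjusted p = 0.00108). F2r, the main thrombin receptor, was 0.889, 2.79 and 1.10 CPM on average and was not called (adjusted p = 0.62 and 0.937). Of the 5 genes that carboxylate or export clotting factors, 4 were tested and 2 were called lower in both sets, with a median of -0.90 and -0.87. Ggcx, the vitamin K-dependent carboxylase, went from 133.5 CPM in controls to 64.9 in ischemia A and 65.5 in ischemia B (log2 -1.06 and -1.05, SE 0.17 for both, adjusted p = 9.39e-05 and 0.000111). Lman1, the cargo receptor for factors V and VIII, went from 68.9 to 46.7 and 43.1 CPM (log2 -0.59 and -0.70, SE 0.18 for both, adjusted p = 0.0212 and 0.00674).

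The fibrinolysis list, the genes that dissolve fibrin or prevent it, had 6 of 10 genes tested, with 2 called higher and 1 lower in both sets and a median of 1.07 in ischemia A and 0.70 in ischemia B. Plaur, the urokinase receptor, had 0 counts in every control and 3.30 ± 3.51 CPM in ischemia A and 1.72 ± 1.66 CPM in ischemia B (SD, n = 4 each), at least 32.0-fold and 16.7-fold above the floor (adjusted p = 0.00542 and 0.00858), and ischemia B replicate 3 was at 0 like the controls. Without replicate 2 of each set, its highest kidney, the ratios to the floor were 15.7 and 9.63. Serpinf2, the gene of alpha2-antiplasmin, fell from 115.3 ± 11 CPM to 10.9 ± 2.05 in ischemia A and 15.2 ± 9.01 in ischemia B, with log2 fold changes of -3.43 and -2.95 (SE 0.39 for both, adjusted p = 4.29e-06 and 2.13e-05). The activators themselves were not called: Plau was 18 CPM in controls, 22.7 in ischemia A and 22 in ischemia B on average (adjusted p = 0.636 and 0.67), and Plat was 1.45, 3.79 and 3.15 CPM (adjusted p = 0.492 and 0.589).

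Of 12 other thrombospondins, fibrinogen-like proteins and receptors, 10 were tested, and 1 was higher and 1 lower in both sets, with a median of 0.56 and 0.10. Itgav, the alpha-v integrin that binds fibrinogen and thrombospondin, rose from 173.7 CPM to 384.5 and 322.1 CPM (log2 1.12 and 0.87, SE 0.11 for both, adjusted p = 4.07e-07 and 1.01e-05). Cd36, the thrombospondin receptor and fatty acid transporter, fell from 70.3 CPM to 19.2 and 16.3 CPM (log2 -1.90 and -2.14, SE 0.29 for both, adjusted p = 7.86e-05 and 2.36e-05).

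The interleukin-6 family and the factors known at fibrinogen promoters formed a list of 15 genes, 11 of them tested. In ischemia A 3 were called higher (Stat3, Socs3 and Cebpd) and 4 lower, Il6st and Cebpa among them, and in ischemia B 2 higher and 4 lower, with a median of 1.47 and 0.52. Stat3, the transcription factor that carries the interleukin-6 signal, rose from 210.7 ± 20.3 CPM to 594.9 ± 57.3 and 613.5 ± 95.4 CPM (SD, n = 4 each). Its log2 fold change was 1.47 and 1.52 (SE 0.13 for both, adjusted p = 8.58e-08 and 6.36e-08). Socs3, a STAT3 target that limits the signal, rose from 1.27 ± 0.68 CPM to 13.6 ± 5.95 and 9.35 ± 5.49 CPM (log2 3.39 and 2.86, SE 0.57 for both, adjusted p = 0.000365 and 0.0015). Cebpa, a factor of the C/EBP family, fell by 0.73 and 1.40 on the log2 scale (SE 0.22 for both, adjusted p = 0.0209 and 9.65e-05). Osmr, the oncostatin M receptor, was at 0 in controls and at 0.557 and 0.730 CPM on average in the sets, and was not tested.

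Of 12 other acute-phase proteins 2 were tested. Lcn2, the iron-binding lipocalin known as a marker of tubule injury, was called higher in both sets, at 13 CPM in ischemia A and 15.3 CPM in ischemia B against 1 read over the 4 controls (adjusted p = 8.14e-08 and 6.75e-08). Saa1, the other gene tested, was not called (edgeR adjusted p = 0.0908 in ischemia A and 0.118 in ischemia B). Of the 12 genes, 7 had 0 counts in every kidney.

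**Figure D5:**
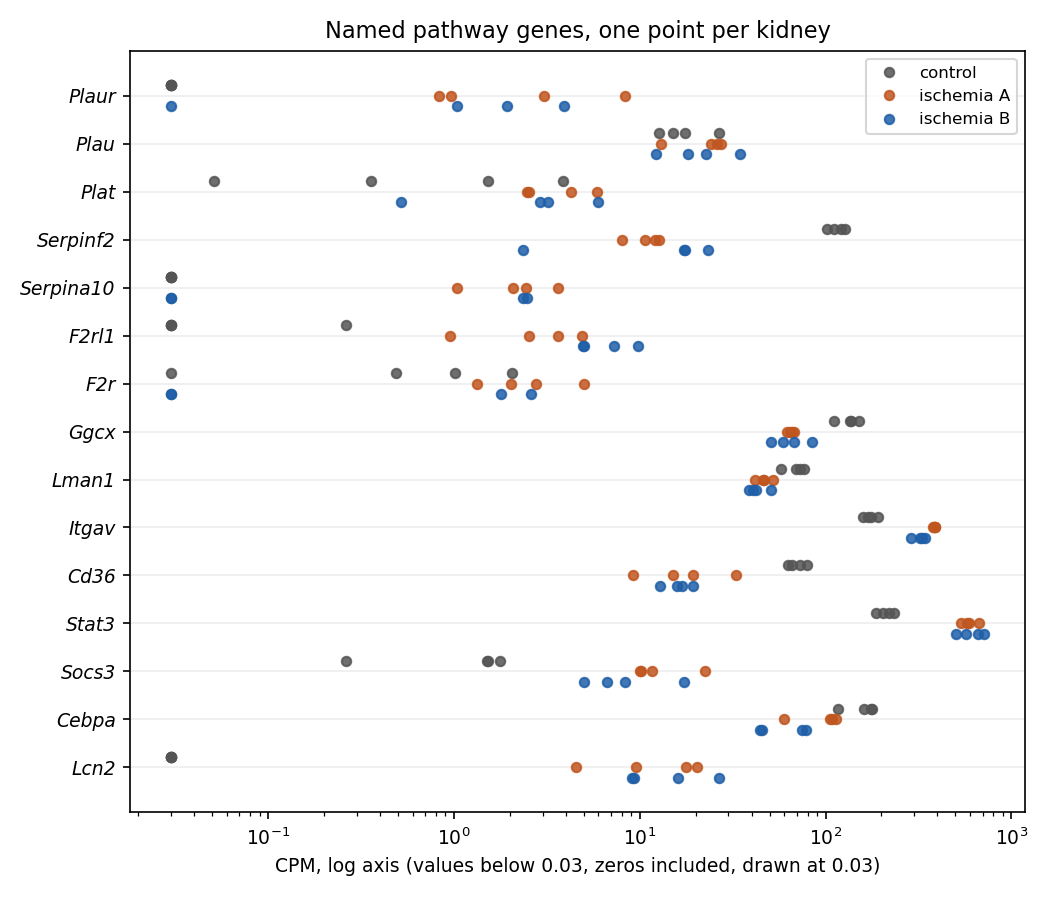
CPM on a log axis (horizontal) of named genes of clotting, fibrinolysis, thrombospondin binding and interleukin-6 signalling, with 1 point per kidney, where values below 0.03 are drawn at 0.03. Lcn2 lies above controls in every ischemic kidney, and Serpinf2 and Cd36 lie below controls in every ischemic kidney. Of all tested genes, 13.2% lay above and 15.2% below all controls in ischemia A, and 12.1% and 14.7% in ischemia B.

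Marker lists of other cell types were summed per kidney, and a sum can rest on a few abundant genes. The summed hepatocyte list was 95.3 to 151 CPM in controls, 29.3 to 48.2 in ischemia A and 21.2 to 78.6 in ischemia B. Of its 8 genes 3 were tested, and Alb, the defining hepatocyte transcript, lay between 0 and 0.44 CPM in the 12 kidneys, with Apoa1, Apoa2 and Ahsg at 0. The platelet list summed to 0 to 4.12 CPM in controls, 0 to 4.04 in ischemia A and 0 to 1.17 in ischemia B, with Gp1ba and Gp1bb at 0, and its 1 tested gene had no p below 0.05 before or after adjustment. Apob, which made up 77.7 to 131 CPM of the hepatocyte sum in controls, was called lower in both sets. The macrophage list summed to 43.0 to 62.9 CPM in controls, 8.07 to 20.8 in ischemia A and 8.39 to 24.2 in ischemia B, almost all of it in controls from Csf1r, the 1 gene of 3 tested that was called (lower in both sets), while Cd68 and C1qb were not called and their log2 fold changes in ischemia B were 1.90 and 1.09. Red cell markers summed to 1.17 to 5.37, 0 to 0.58 and 0 CPM, and neutrophil markers to at most 0.446 CPM. Podocyte markers went the same way as the chains, from 157 to 197 CPM in controls to 197 to 371 in ischemia A and 230 to 356 in ischemia B, and their part in the result was not tested.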

How the data were processed

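Per the labels and the study's methods, polyA RNA was made into stranded libraries (TruSeq) and sequenced as single reads of 100 bases on a HiSeq instrument. The submitters' notes name FastQC, STAR, HTSeq, edgeR and mm10. Versions, annotation release and strand setting are not given in the sources used here. The authors deposited raw counts per gene, with no normalization. Groups came from the sample labels, and the series text gives 4 mice per group.

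From the counts, edgeR 4.0.16 (R 4.3.3) kept genes by filterByExpr (minimum count 10, minimum total 15), scaled by TMM (factors 0.968 to 1.03) and fitted the 3 groups together by its quasi-likelihood test. Of the 23420 genes, 14213 had a count and 11664 were tested, with Benjamini-Hochberg adjustment over them. The common biological coefficient of variation was 0.762. CPM was scaled to the total counted reads of a kidney, and the floor of 3 counts equals 0.067 to 0.195 CPM per library and covers counting error only. The test was run on simulated data first. Alternatives were DESeq2 1.42.0, its size factors, no filter, a stricter filter (over 1 CPM in 4 or more kidneys), only the groups compared, a replicate block, limma-trend 3.58.1, each kidney left out and, chosen after seeing the data, edgeR's newer dispersion method. Ratios and correlations used exact permutation tests in SciPy 1.17.1.

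The 8 genes and all lists were chosen with earlier results of these data known. Named beside them are the list genes called in both sets (at most 4 per list by mean change), 10 regulators given whatever their result (some of these, and a motif, are not reported here), the nearest coding genes, and the 3 genes most correlated with Fgb.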

Additional observations from a re-analysis of the deposited data

Results flagged for a closer look

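In groups of 4 kidneys, a kidney was singled out when its gap to the nearest other, divided by the range of the group, exceeded Dixon's 95% critical value. Of 19 groups with any spread 3 did so. The usual rate of about 1 in 20 by chance does not apply to F3 and Procr below, where the other 3 kidneys are at 0 and the gap equals the range by construction. Fgg in control replicate 1 was 4.86 CPM against 0.0373 to 0.18 CPM in the other controls, a gap of 0.971 of the range, and the same kidney was the highest control for Fgb. F3 in ischemia A replicate 2 was 1.09 CPM with the other ischemia A kidneys at 0. Procr in ischemia B replicate 2 was 0.373 CPM with the others of ischemia B at 0.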

How the results depend on the processing

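Of 15 results (5 genes in 3 comparisons), 10 kept their direction and their side of the threshold in all 20 alternatives. The exceptions were Fgb and Fgg in ischemia A, given in the report, Thbd in ischemia A, which was called with edgeR's newer dispersion method (chosen after seeing the data, adjusted p = 0.0371), and 2 differences between the sets that were never called. Thbd of ischemia B over ischemia A was 0.36 with a replicate block, 0.79 with limma-trend and between -0.84 and 0.16 with 1 kidney left out, and Fga ranged from -0.0948 to 0.77 when each kidney was left out. The log2 ratio of Fgb to Fgg between the sets ranged from -0.89 to 0.16, and r of Fga with Fgb from 0.721 to 0.887, with 1 kidney left out. Of the 8 genes, 2 were called in ischemia A when only the groups compared entered the fit, and 2 (without control replicate 4) to 4 with 1 kidney left out. Over all genes, 1 was called between the sets, against 51 with DESeq2, 6 with no filter, 0 with only these 2 groups (336 at an unadjusted p under 0.05), 0 with limma-trend (683), 2 with the newer dispersion method and 0 to 7 (without ischemia B replicate 4) with 1 kidney left out. Sizes also moved by over 1.5 times with limma-trend, to log2 fold changes of 4.10 and 5.12 for Fgb and 4.63 and 6.04 for Fgg in ischemia A and B, and 3.22 for Thbd in ischemia B. The causes were not tested.

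Same-numbered kidneys share only a number: correlations of their deviations from the group means ranged from -0.0554 to 0.0452, and 2 of 12 kidneys correlated best with their own number. With the replicate block, 2491, 2531 and 1 genes were called in ischemia A, in ischemia B and between the sets against 2599, 2659 and 1 without it, and no call on the 8 genes changed, while Fgb in ischemia A became 3.88 and Fgg 4.61 in ischemia A and 5.89 in ischemia B, and Thbd 3.08 and 3.44. F3, Procr and Tfpi did not pass the count filter, so the tests with that filter do not cover them.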

Other observations

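Among 9351 genes whose mean log2 CPM was 1 or more, the 3 most like Fgb across the 8 ischemic kidneys were Leo1, a subunit of the PAF1 elongation complex (r = 0.982, rho = 0.976), Gtf3c3, a subunit of the RNA polymerase III factor TFIIIC (r = 0.947, rho = 0.857), and Dclk1, a microtubule-associated kinase (r = 0.941, rho = 0.905). They were chosen for r, so no p is given. Leo1 was 5.16 to 11.9 CPM in controls, 8.06 to 16.6 in ischemia A and 10.6 to 19.1 in ischemia B. Dclk1 was 0 to 1.57, 2.14 to 5.56 and 2.47 to 6.76 CPM. Gtf3c3 was lower in ischemic kidneys, at 41.1 to 54.0 CPM in controls, 19.6 to 38.8 in ischemia A and 23.6 to 39.1 in ischemia B, but was not called (edgeR adjusted p = 0.103 and 0.263). Leo1 and Dclk1 were not called against control in either set. All of these kidneys share the group difference between the sets, and 8 points over so many genes give high values of r readily.

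Within ischemia A the pair of kidneys with the higher Thbs1 had the lower Fga, a split seen after the values were known and not tested. Replicates 1 and 3, with Thbs1 at 1155.9 and 1043.0 CPM, had Fga at 15.44 and 18.40 CPM and Col1a1, a fibroblast collagen, at 2181.7 and 1716.5 CPM. Replicates 2 and 4, with Thbs1 at 388.6 and 321.4 CPM, had Fga at 34.99 and 37.23 CPM and Col1a1 at 1201.8 and 723.0 CPM. The 2 kidneys with high Thbs1 were also the more deeply sequenced, at 31280754 and 44793350 counted reads against 23035985 and 16814285.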
